A study of Mus musculus with 15 samples.

Results

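Cortex libraries that held choroid plexus RNA were set against the libraries that held little of it. The marker was Ttr, transthyretin, which carries thyroid hormone and retinol-binding protein in cerebrospinal fluid. A library counted as choroid-containing when Ttr reached at least 100 CPM (the gene's count divided by the library's total count and scaled to 1000000). By that rule 3 of the 15 libraries were choroid-containing, namely cTBS replicate 4, sham replicate 2 and sham replicate 5, and 12 were not. Libraries are called below by group and replicate number, as in cTBS 4.

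The choroid plexus is a frond of specialised epithelium around fenestrated vessels that hangs in the brain ventricles. Its epithelial cells secrete cerebrospinal fluid by moving sodium, bicarbonate, chloride and water across a leaky junctional barrier, and they release carrier proteins and growth factor regulators into that fluid. It lies in the ventricles, outside the cortex that was dissected here.

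The study measured the whole transcriptome of cortex from wild-type C57BL/6J mice 3 hours after 1 session of repetitive magnetic stimulation of the brain. The groups were intermittent theta-burst stimulation (iTBS), continuous theta-burst stimulation (cTBS) and sham stimulation, with 5 animals each. Sample titles name somatosensory cortex and the design names sensorimotor cortex. Libraries were made from ribosome-depleted total RNA of bulk tissue, so fewer cells of a type and less RNA per cell cannot be told apart. Total counts were 25130470 to 43770223 in the choroid-containing libraries and 15385070 to 47807723 in the rest.

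Ttr stood at 221 CPM in cTBS 4, 240.3 CPM in sham 2 and 249 CPM in sham 5, which rest on 6040 to 9655 counts per library. In the other 12 libraries it ran from 0.780 CPM in iTBS 3 through a median of 3.74 CPM to 62.7 CPM in iTBS 5, on 12 to 2008 counts. The library just inside the threshold was cTBS 4 and the one just outside was iTBS 5, and they lay 3.52-fold apart. The means were 237 ± 14.7 CPM (SD, n = 3) and 11.1 ± 17.4 CPM (SD, n = 12). These values chose the libraries and are a description only. No library was at 0, and iTBS 5 and, at 22.1 CPM, iTBS 1 stood above the other 10 libraries of the rest.

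**Figure D1:**
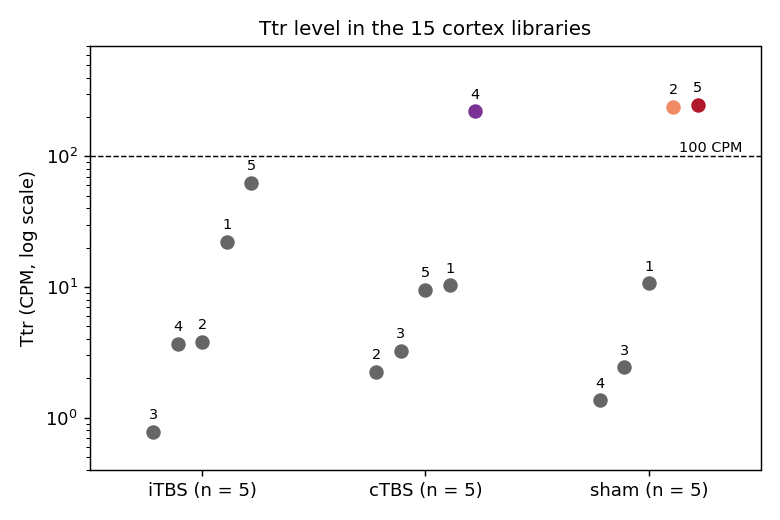
Ttr level in CPM (log axis) in each library by stimulation group; numbers are replicates, coloured points are the 3 choroid-containing libraries and the dashed line is the 100 CPM threshold. The choroid-containing libraries lie between 221 and 249 CPM, and iTBS 5 lies nearest below the line at 62.7 CPM.

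The choroid-containing libraries were 0 of 5 iTBS, 1 of 5 cTBS and 2 of 5 sham libraries. A two-sided exact test of these counts over the 3 groups, with the classes set by the Ttr rule, gave p = 0.725. With 3 such libraries the smallest p it allows is 0.0659, so it could not have passed 0.05 whatever their spread. The 3 libraries also differed from each other in other tissue. In sham 2 the summed level of 21 genes of thalamic neurons was 878 CPM, against 480.3 CPM in cTBS 4, 509 CPM in sham 5 and 467 to 524 CPM in the rest. In cTBS 4 the nuclear noncoding RNA Malat1 was at 985 CPM, against 5736 CPM in sham 2, 4668 CPM in sham 5 and 1521 to 10000 CPM in the rest. Each library was left out in turn. This removes its Ttr level together with these differences, so it cannot separate their part in the results below.

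Besides Ttr, 10 of 24251 genes tested were higher in the choroid-containing libraries at an adjusted p under 0.05 (0.0412% of genes), and 0 were lower. The test was edgeR's quasi-likelihood F test with stimulation group as a covariate. At an unadjusted p under 0.05, 396 genes differed in either direction (1.63%), 120 of them higher (0.495%). Leaving out cTBS 4 or sham 5 left 0 calls, at 412 and 583 genes under an unadjusted p of 0.05, and the sham libraries alone also gave 0, at 190. DESeq2 gave 15 and limma-voom 13. Since the libraries were picked by a measured transcript, the calls list what varies with that transcript and support nothing further. No iTBS library was choroid-containing, so the fold changes come from contrasts within cTBS and sham, and iTBS libraries add to the estimate of spread only.

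All 10 called genes belong to 5 lists of choroid plexus genes, drawn up with earlier results of these data known. By role they are the secreted or shed proteins Enpp2, Kl, F5, Sostdc1 and 1500015O10Rik, the transport proteins Slc4a5, Kcne2 and Aqp1, the membrane protein Mfrp and the tight junction protein Cldn2. Upstream sequence was looked up for these genes because they move together. RefSeq promoter tables for build GRCm38.p6 held 8 of the 10, 7 of them with a single start. The 4 of these 7 with the largest fold change are shown as the 250 bases before the start, 5′ to 3′, all on the plus strand. They are Cldn2 at chrX:139800558-139800807, Slc4a5 at chr6:83237125-83237374, Aqp1 at chr6:55336049-55336298 and Mfrp at chr9:44101520-44101769. Capitals mark TAATCC on either strand, a core bound by OTX-type homeobox factors, of which Otx2 is the choroid plexus member.
Cldn2: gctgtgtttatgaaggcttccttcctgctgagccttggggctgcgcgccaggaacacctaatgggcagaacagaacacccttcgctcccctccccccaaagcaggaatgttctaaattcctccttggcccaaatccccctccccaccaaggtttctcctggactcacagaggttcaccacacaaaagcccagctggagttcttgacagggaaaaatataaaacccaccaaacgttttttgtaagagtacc
Slc4a5: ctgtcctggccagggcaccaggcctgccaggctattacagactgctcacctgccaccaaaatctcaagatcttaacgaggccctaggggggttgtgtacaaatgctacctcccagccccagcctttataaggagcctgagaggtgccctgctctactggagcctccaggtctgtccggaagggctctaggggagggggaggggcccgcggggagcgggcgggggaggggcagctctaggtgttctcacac
Aqp1: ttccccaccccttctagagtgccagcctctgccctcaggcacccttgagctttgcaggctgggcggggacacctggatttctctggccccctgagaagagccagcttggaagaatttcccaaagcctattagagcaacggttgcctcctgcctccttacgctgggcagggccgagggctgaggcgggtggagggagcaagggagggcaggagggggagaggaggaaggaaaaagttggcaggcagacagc
Mfrp: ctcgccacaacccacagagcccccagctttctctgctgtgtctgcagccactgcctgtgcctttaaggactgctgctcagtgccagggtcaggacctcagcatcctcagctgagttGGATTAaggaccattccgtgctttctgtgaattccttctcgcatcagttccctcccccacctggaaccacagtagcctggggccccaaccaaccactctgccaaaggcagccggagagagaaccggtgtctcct

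The motif TAATCC or its reverse complement GGATTA was in 1 of the 7 windows, that of Mfrp, against 6.25% of the 32851 promoters in the table. Of the other 10 motifs searched on both strands, the RFX motif GTTGCC was in 1 window, that of Aqp1, against 10.4% of promoters. The forkhead core TGTTTAC was in 0 of 7, against 3.17%. The remaining 8 were searched in the same way. CAGGTG was in 4 of the 7 windows against 17.2% of promoters, TATAAA in 2 against 12.4%, TGACAG in 1 against 15.9% and AGGTCA in 1 against 14% of promoters. TAAGC was in 0 windows against 25.3% of promoters, CACGTG in 0 against 6.02%, TGTTTGC in 0 against 4.3% and TTTGCAT in 0 against 4.12% of promoters. These letters describe the windows only, and the motifs were searched for as exact letters.

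Among secreted proteins, Enpp2 codes for autotaxin, which makes the signalling lipid lysophosphatidic acid and is also made by oligodendrocytes. Its level was 322 CPM in cTBS 4, 360.1 CPM in sham 2 and 343 CPM in sham 5, against 216 to 268 CPM with a median of 228 CPM in the rest. The groups did not overlap, and the log2 fold change was 0.59 ± 0.10 (SE), the smallest of the 10. Kl codes for klotho, a co-receptor for a phosphate-regulating growth factor that is also shed as a soluble protein. It was at 14.7 CPM in cTBS 4, 14.8 CPM in sham 2 and 17.8 CPM in sham 5, against 2.40 to 6.97 CPM with a median of 4.02 CPM in the rest. The log2 fold change was 2.01 ± 0.29, with all 3 libraries above the highest of the rest.

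F5 codes for coagulation factor V, best known as a liver product. It was at 3.02 CPM in cTBS 4, 5.49 CPM in sham 2 and 5.34 CPM in sham 5, against 0.478 to 1.90 CPM with a median of 0.761 CPM in the rest. The log2 fold change was 2.54 ± 0.36, and cTBS 4 was the lowest of the 3 while still above the rest. Sostdc1, a secreted antagonist of BMP and Wnt signals, was at 1.96 CPM in cTBS 4, 3.18 CPM in sham 2 and 2.80 CPM in sham 5, against 0.256 to 0.719 CPM with a median of 0.441 CPM in the rest. Its log2 fold change was 2.40 ± 0.34, again without overlap. The gene 1500015O10Rik, whose RefSeq symbol is Ecrg4 and which codes for the secreted peptide precursor augurin, was at 2.31 CPM in cTBS 4, 2.67 CPM in sham 2 and 2.48 CPM in sham 5. The rest had 0.622 to 1.28 CPM with a median of 0.906 CPM, and the log2 fold change was 1.58 ± 0.21. It overlaps Gm29155 on the other strand, and the strand setting of the counting is not given in the sources used here. Gm29155 itself had a log2 fold change of 0.36 and was not called.

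The other secreted proteins of the list did not pass the test. Of 19 tested members other than Ttr, 5 were called and 13 had a log2 fold change above 0, against 41.6% of all genes above 0. The list's median was 0.26, against -0.03 over all genes tested, and it was 0.07 with 11 above 0 without cTBS 4 and 0.16 without sham 2. Clu, the chaperone clusterin, averaged 562 CPM in the choroid-containing libraries and 532 CPM in the rest, with a log2 fold change of 0.08 ± 0.11. Cst3, the protease inhibitor cystatin C, had -0.07 ± 0.12, Vtn, the matrix protein vitronectin, had -0.04 ± 0.08, and Trf, the iron carrier transferrin, had 0.26 ± 0.12. Cortical astrocytes, mural cells and oligodendrocytes are known sources of these 4 transcripts. Igf2, a growth factor made by choroid plexus and meninges, averaged 1.35 ± 0.55 CPM (SD, n = 3) in the choroid-containing libraries and 1.27 ± 0.28 CPM (SD, n = 12) in the rest.

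Among transport proteins, Slc4a5 is an electrogenic sodium bicarbonate cotransporter of the ventricle-facing membrane. It was at 2.12 CPM in cTBS 4, 3.26 CPM in sham 2 and 2.90 CPM in sham 5, against 0.0628 to 0.719 CPM with a median of 0.263 CPM in the rest. The groups did not overlap, and the log2 fold change was 3.72 ± 0.48. Kcne2 is a potassium channel subunit that sets channel behaviour in choroid plexus epithelium. It was at 0.937 CPM in cTBS 4, 1.39 CPM in sham 2 and 1.21 CPM in sham 5, on 35 to 41 counts per library. In the rest it had at most 0.343 CPM and 13 counts, with 0 counts in 1 library, and the log2 fold change was 4.26 ± 0.57.

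Aqp1, the water channel of the ventricle-facing membrane, was at 2.31 CPM in cTBS 4, 1.75 CPM in sham 2 and 2.05 CPM in sham 5. The rest had 0.160 to 1.03 CPM with a median of 0.302 CPM, and the log2 fold change was 2.73 ± 0.43 without overlap. Folr1, the folate receptor that carries folate into cerebrospinal fluid, did not pass the threshold in the edgeR fit used here, with a log2 fold change of 2.88 ± 0.51, and passed it in 8 of 26 alternatives, DESeq2 and limma-voom among them. It was at 1.96 CPM in cTBS 4, 1.83 CPM in sham 2 and 1.56 CPM in sham 5, against 0 to 0.448 CPM in the rest, so its groups also did not overlap. Folr1 overlaps Anapc15 on the other strand, which had a log2 fold change of -0.01. Where a library of the rest had 0 counts, 3 counts is the level a count of 0 allows, which was 0.162 CPM in sham 3 for Kcne2 and 0.0933 CPM in iTBS 2 for Folr1.

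Of 33 tested transport members, 3 were called and 26 had a log2 fold change above 0, with a median of 0.14, and of 0.26 without cTBS 4. Among its most abundant members, the sodium pump subunit Atp1b1 had a log2 fold change of 0.06 ± 0.11. The bicarbonate transporter Slc4a10 had 0.05 ± 0.08, the calcium pump Atp2b3 had 0.14 ± 0.09, the carbonic anhydrase Car2 had 0.16 ± 0.12 and the chloride cotransporter Slc12a2 had 0.14 ± 0.09. Clic6, a chloride channel family member singled out after its values were seen, was at 6.85 CPM in cTBS 4, 7.68 CPM in sham 2 and 5.83 CPM in sham 5, against 0.650 to 6.20 CPM in the rest. Its highest value in the rest was in cTBS 2, so the groups overlapped, and its log2 fold change was 1.87 ± 0.52.

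Among receptors and signalling proteins, Mfrp, a membrane protein with a frizzled-like domain known best from the retinal pigment epithelium, was at 2.86 CPM in cTBS 4, 2.43 CPM in sham 2 and 3.78 CPM in sham 5. The rest had 0.169 to 1.50 CPM with a median of 0.716 CPM, and the log2 fold change was 2.65 ± 0.39. Mfrp shares its locus with C1qtnf5 on the same strand, which was at 0 counts in every library. How reads shared by these 2 genes were counted is not given, so that 0 does not show C1qtnf5 to be absent. Rnf26 overlaps Mfrp on the other strand and had a log2 fold change of -0.14. Prlr, the prolactin receptor, did not pass the threshold in the edgeR fit used here and passed it in 11 of 26 alternatives, DESeq2 and limma-voom among them. It was at 4.75 CPM in cTBS 4, 9.91 CPM in sham 2 and 8.11 CPM in sham 5, against 0.736 to 2.86 CPM in the rest, with a log2 fold change of 2.39 ± 0.41. Of 19 tested receptors and signalling members, 1 was called and 18 were above 0, with a median of 0.16, and of 0.31 without cTBS 4. Htr2c, a serotonin receptor dense in choroid plexus and also present in cortical neurons, averaged 43.4 ± 6.7 CPM (SD, n = 3) in the choroid-containing libraries and 34.4 ± 14.8 CPM (SD, n = 12) in the rest. Those ranges overlapped, and Htr2c was highest of all in cTBS 2 at 68.0 CPM. Rasgrf1, Stk39, Cab39l and Sulf1 had log2 fold changes of 0.07 to 0.20, and Ppp1r1b, also a striatal gene, had 0.12 ± 0.32.

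Among junction and cytoskeleton genes, Cldn2, the claudin that forms cation and water pores in leaky epithelia, was at 1.53 CPM in cTBS 4, 1.11 CPM in sham 2 and 1.89 CPM in sham 5. The rest had 0 to 0.448 CPM with a median of 0.0827 CPM, with 0 counts in 2 libraries. The log2 fold change was 4.15 ± 0.61, on 28 to 67 counts per choroid-containing library against at most 17 in the rest. This list had 1 called member of 12 tested, all 12 were above 0, and its median of 0.69 was the highest of the 5 choroid lists. Its 18 listed genes were cut to 12 by the filter on low counts, which Cldn2 and Krt18 passed only through the choroid-containing libraries. Such genes had to be higher, so the 12 above 0 and the median describe the list only. Leaving out each choroid-containing library in turn gave medians of 0.63 to 0.72. The summed level of the list was 32.6 CPM in cTBS 4, 32.0 CPM in sham 2 and 32.0 CPM in sham 5, against 19.7 to 26.4 CPM in the rest, without overlap. The cadherin Cdh3, the keratin Krt18 and the claudin Cldn1 also did not overlap between the groups, with log2 fold changes of 1.19 ± 0.36, 2.10 ± 0.69 and 0.69 ± 0.24, and did not pass the test. The collagens Col9a3, Col8a1 and Col8a2 had 0.60 ± 0.18, 0.41 ± 0.17 and 0.68 ± 0.21, with overlapping ranges. The summed levels of the other choroid lists, without Ttr, overlapped between the groups. Secreted proteins had 1560 to 1654 CPM, against 1251 to 1580 CPM in the rest. Transport members had 2944 to 3310 CPM against 2815 to 3254 CPM. Receptors and signalling members had 814 to 900 CPM against 703 to 920 CPM. Transcription factors had 145 to 181 CPM against 131 to 171 CPM.

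Of 13 tested transcription factors of the choroid plexus, 0 were called, 1 was higher at an unadjusted p under 0.05 and 11 were above 0, with a median of 0.26. The median was 0.06 without sham 2 and 0.11 without sham 5. The gene under that p was Otx2, the homeobox factor needed to form and maintain the tissue. It was at 1.53 CPM in cTBS 4, 1.67 CPM in sham 2 and 1.08 CPM in sham 5, against 0 to 0.580 CPM with a median of 0.326 CPM in the rest. The groups did not overlap, and its log2 fold change was 2.40 ± 0.51. Otx2 overlaps Otx2os1 on the other strand, which was left out by the filter. Otx2os1 averaged 0.183 CPM in the choroid-containing libraries and 0.0272 CPM in the rest, so reads of 1 gene counted for the other cannot be told apart here. Otx2 was called in 2 of 26 alternatives, DESeq2 being 1 of them. Foxj1, the master regulator of motile cilia, had 0.26 ± 0.18, and Rfx3, Rfx4 and Emx2 had 0.03 to 0.06. Zic1 was at 30.9 CPM in sham 2, against 8.86 CPM in cTBS 4 and 10.9 CPM in sham 5, and it is also a thalamic gene.

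**Figure D2:**
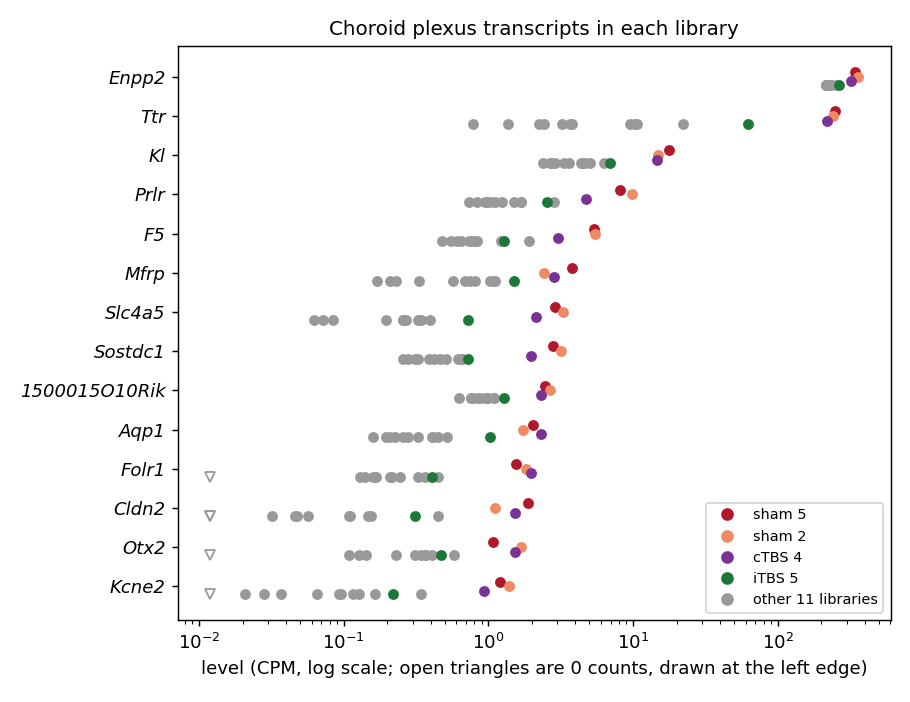
Level in CPM (log axis) of Ttr and 13 choroid plexus genes in each library, with the 3 choroid-containing libraries, iTBS 5 and the other 11 libraries in separate colours; open triangles are libraries with 0 counts. The 3 choroid-containing libraries lie above all others for every gene drawn, from Ttr at 221 CPM or more against at most 62.7 CPM to Kcne2 at 0.937 CPM or more against at most 0.343 CPM.

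Over the 5 choroid lists together, 108 symbols besides Ttr were listed, 96 genes were tested and 12 were left out by the filter on low counts. Of the 96, 10 were called, 19 were higher without overlap and 80 were above 0, with a median of 0.23. Over all genes 31 were higher without overlap (0.128%) and 18 were lower without overlap (0.0742%). A gene that passed the filter only through the choroid-containing libraries had to differ, so these counts describe the lists and are no support for them. Kcne2, Cldn2 and Krt18 are such genes, and the large fold changes of Kcne2 and Cldn2 are to be read with that limit. The 19 are the 10 called genes, Prlr, Folr1, Otx2, Cdh3, Krt18 and Cldn1, and also the hexose transporter Slc2a12, the zinc importer Slc39a4 and the calmodulin-like Calml4. The other 12 of the 31 were picked out after their values were seen. They include Lbp, a lipopolysaccharide-binding protein, with a log2 fold change of 1.00 ± 0.19, and Drc7, a part of the motile cilium's dynein regulatory complex, with 1.43 ± 0.35. Upf2, Zfp109, Cbln1, Cntfr and Lrrc3, also among the 12, had log2 fold changes of 0.13 to 0.28.

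Lists of other cell types of the choroid plexus and of vessels held no called gene. Of 23 tested genes of choroid stroma and meningeal fibroblasts, 0 were called, 0 passed an unadjusted p of 0.05 and 10 were above 0, with a median of -0.06. The direction turned with single libraries, to 0.07 with 16 above 0 without sham 2 and 0.04 with 14 above 0 without sham 5, and it was -0.26 with 3 above 0 without cTBS 4. Cdh11, Ccn3, Col6a1 and Igfbp6, its 4 most abundant members, had log2 fold changes of 0.03 ± 0.08, -0.06 ± 0.15, -0.39 ± 0.26 and 0.02 ± 0.16. Its summed level was 454 CPM in cTBS 4, 349 CPM in sham 2 and 396 CPM in sham 5, against 386 to 488 CPM in the rest. Fenestrated endothelium, whose marker Plvap forms the diaphragms of such vessels, had 0 of 8 called and a median of -0.07 (-0.17 without cTBS 4 and 0.00 without sham 2), and Plvap had -0.22 ± 0.18. Blood-brain barrier endothelium, mural cells, border and stromal macrophages and microglia had 0 called and medians of -0.07 to 0.00. Without any 1 of the 3 libraries these 4 medians were between -0.19 and 0.03. With all 15 libraries, these lists had 0 genes under an unadjusted p of 0.05 in either direction.

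Ependymal cells line the ventricle wall and carry motile cilia. Of 35 tested genes of ependymal cells and motile cilia, 0 were called, 1 was higher at an unadjusted p under 0.05 and 25 were above 0, with a median of 0.11. The median was 0.34 with 31 above 0 without cTBS 4, and 0.03 with 20 above 0 without sham 2. The gene under that p was Drc7, at 2.08 CPM in cTBS 4, 1.43 CPM in sham 2 and 2.61 CPM in sham 5, against 0.379 to 1.17 CPM in the rest. Cfap69, Dnah5, Dnah9 and Spag6l, the 4 most abundant members, had log2 fold changes of -0.10 to 0.04. The list's summed level was 66.9 CPM in cTBS 4, 92.7 CPM in sham 2 and 85.7 CPM in sham 5, against 59.0 to 88.5 CPM in the rest, with overlap.

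**Figure D3:**
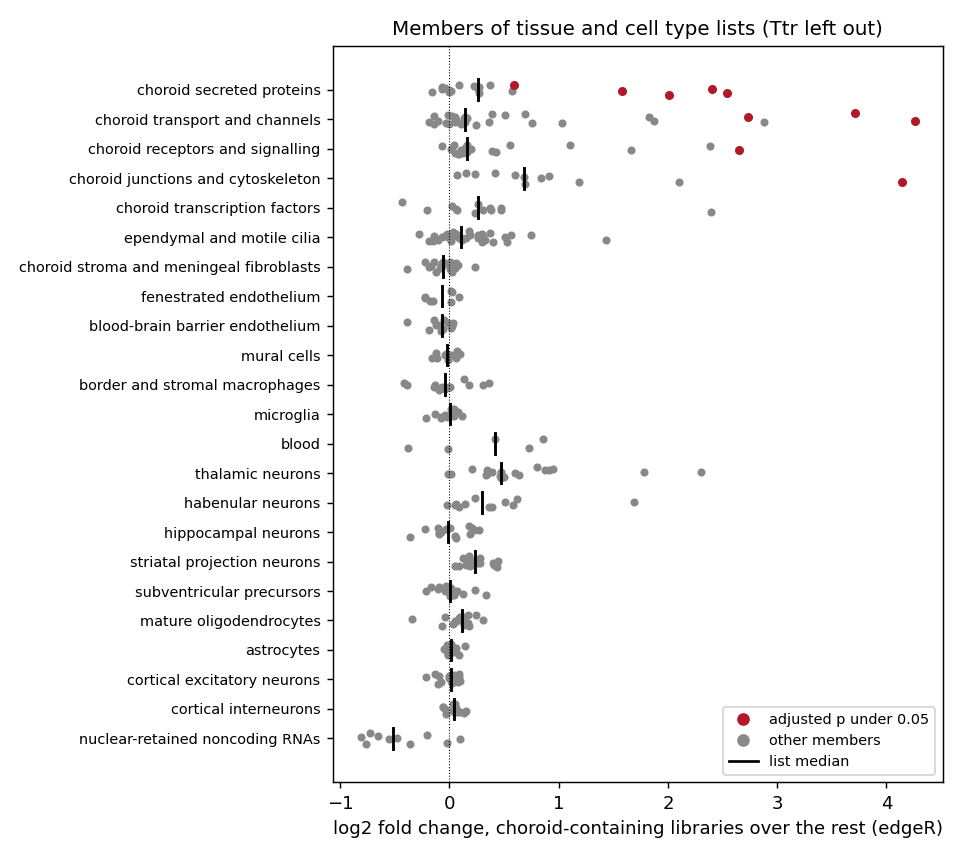
Log2 fold change of choroid-containing libraries over the rest for each tested list member (points; red, adjusted p under 0.05 in edgeR) and list medians (bars), without Ttr. All 10 red points lie in choroid plexus lists, and the medians of the stroma, endothelial and macrophage lists lie between -0.07 and -0.04.

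Tissue around the ventricles differed between the 3 libraries. The 19 tested thalamic genes had a median log2 fold change of 0.47 with 18 above 0, and of -0.01 with 8 above 0 when sham 2 was left out. It was 0.87 without cTBS 4 and 0.72 without sham 5. Prkcd, a kinase gene of sensory thalamus, was at 66.9 CPM in sham 2, against 5.96 CPM in cTBS 4, 5.93 CPM in sham 5 and 3.96 to 14.02 CPM in the rest. Tcf7l2, a thalamic transcription factor, was at 49.0 CPM in sham 2, against 8.93 CPM in cTBS 4, 10.1 CPM in sham 5 and 8.33 to 12.7 CPM in the rest. Only sham 2 of the 15 libraries was high for both genes. The 12 habenular genes had a median of 0.30, and 0.10 without sham 2, 0.51 without cTBS 4 and 0.56 without sham 5. Striatal projection neuron genes had a median of 0.23, and -0.29 without sham 2, 0.58 without cTBS 4 and 0.51 without sham 5. Their summed levels were 1373 CPM in cTBS 4, 1715 CPM in sham 2 and 749.9 CPM in sham 5, against 603 CPM in sham 3 to 2139.9 CPM in iTBS 2 in the rest. With sham 2 left out, 8 of the 10 choroid genes were called, against 0 without cTBS 4 or without sham 5. Leaving out a library also removes its Ttr level, so the part of this other tissue in the calls was not tested.

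The remaining lists gave no calls. Cortical excitatory neurons, interneurons, astrocytes, hippocampal neurons and subventricular precursors had medians of -0.02 to 0.04, and of -0.18 to 0.16 when any 1 of the 3 libraries was left out. The cortical excitatory list was low in sham 2, with a summed level of 2252 CPM against 2578 to 3153 CPM in the rest. It was 2941 CPM in cTBS 4 and 2938 CPM in sham 5. Of its 18 genes, 17 were above 0 without sham 2 and 2 without cTBS 4. Mature oligodendrocytes had a median of 0.11 with 15 of 18 above 0 (0.26 without cTBS 4 and 0.03 without sham 2), and Enpp2 is also transcribed in these cells. Their summed level was 3123 CPM in cTBS 4, 3798 CPM in sham 2 and 2993 CPM in sham 5, against 2314 to 4097 CPM in the rest, with overlap, whereas Enpp2 did not overlap. The part of oligodendrocytes in the Enpp2 difference was not tested. Blood genes had a median of 0.42 over 5 tested members (0.68 without sham 2 and 0.16 without sham 5), with summed levels of 6.26 CPM in cTBS 4, 8.32 CPM in sham 2 and 9.71 CPM in sham 5, against 4.20 to 12.7 CPM in the rest. Nuclear-retained noncoding RNAs had a median of -0.52, and -0.13 without cTBS 4. With log2 Malat1 as a covariate all 10 choroid genes were called.

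**Figure D4:**
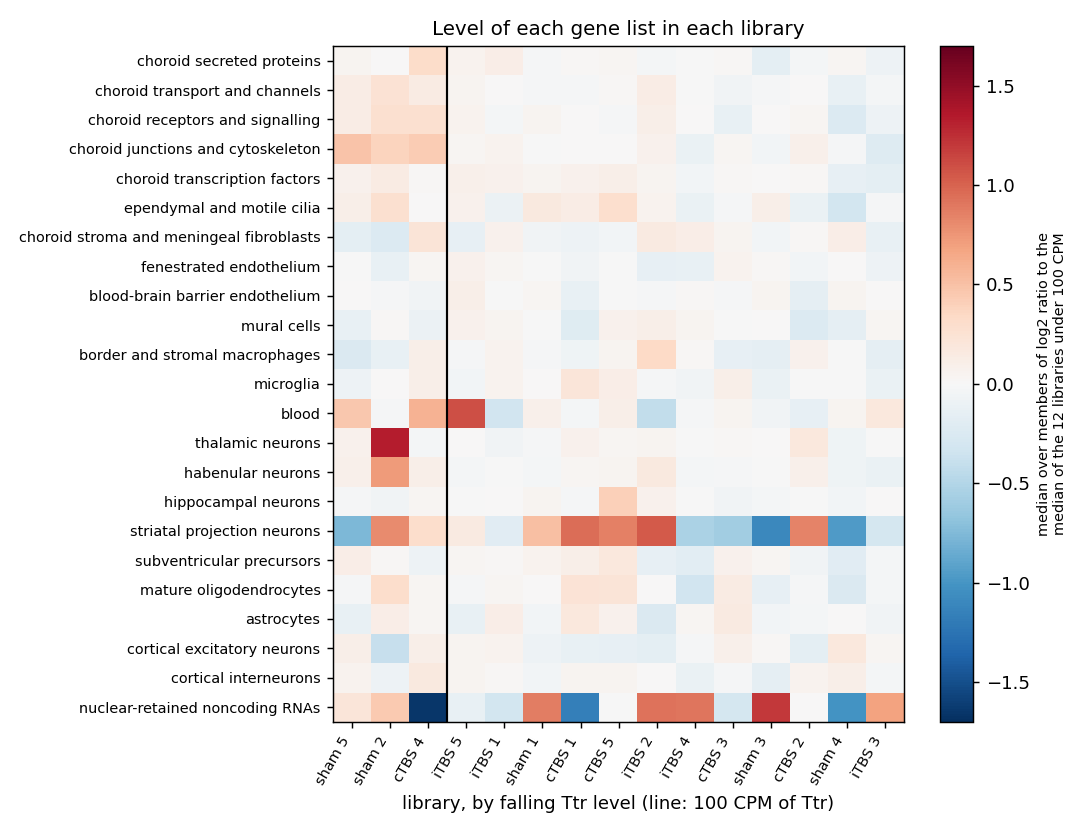
Median over list members of the log2 ratio to the median of the 12 libraries under 100 CPM of Ttr, for each list (rows) and library (columns, by falling Ttr); choroid-containing libraries are left of the line. Junction genes are higher in all 3 of them (0.38 to 0.48), thalamic genes in sham 2 alone (1.34), and nuclear-retained RNAs are low in cTBS 4 (-1.65).

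The amount of each transcript beyond the median of the rest was set against the same excess of Ttr, to describe the mix in each choroid-containing library. Per 100 CPM of Ttr excess, Kl had 4.92 CPM in cTBS 4, 4.57 CPM in sham 2 and 5.59 CPM in sham 5, within 1.22-fold. 1500015O10Rik had 0.646 CPM in cTBS 4, 0.744 CPM in sham 2 and 0.640 CPM in sham 5, within 1.16-fold. Enpp2 had 43.3 CPM, 55.8 CPM and 47.0 CPM in the same 3 libraries, within 1.29-fold. Of the 13 genes examined, these 3 had the narrowest ranges. F5 had 1.04 CPM in cTBS 4, against 2.00 CPM in sham 2 and 1.87 CPM in sham 5, and Prlr, with the widest range of 2.24-fold, had 1.65 CPM in cTBS 4, 3.69 CPM in sham 2 and 2.83 CPM in sham 5. Aqp1 and Folr1 were highest in cTBS 4, with Aqp1 at 0.925 CPM, 0.612 CPM and 0.713 CPM and Folr1 at 0.808 CPM, 0.684 CPM and 0.550 CPM in cTBS 4, sham 2 and sham 5. With 1 cTBS library, an effect of stimulation and of the individual animal cannot be told apart.

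The same genes were then followed within the 12 libraries under the threshold, where Ttr still spanned 0.780 to 62.7 CPM. No gene besides Ttr followed log2 Ttr at an adjusted p under 0.05 in edgeR. At an unadjusted p under 0.05, 406 genes did, DESeq2 called 1 gene, Kl, and limma-voom 0. Kl had a log2 change of 0.28 ± 0.05 (SE) per doubling of Ttr in edgeR, at an adjusted p of 0.802, and of 0.28 ± 0.055 in DESeq2, at an adjusted p of 0.00576. Slc4a5 had 0.44 ± 0.14, Aqp1 0.41 ± 0.11, Folr1 0.47 ± 0.17 and Otx2 0.48 ± 0.16 per doubling, and 1500015O10Rik had 0.05 ± 0.07. Of the 96 choroid list genes, 78 had a slope above 0, against 48.7% of all genes. At an unadjusted p under 0.05, 14 had a positive slope, against 0.882% of all genes, and 1 a negative slope, against 0.792%. The median slope was 0.03 over the 96 and 0.00 over all genes. The member with that negative slope was Trpv4, an osmosensitive ion channel. Positive slopes were not particular to the choroid lists. Mature oligodendrocytes had 17 of 18 slopes above 0, with 5 positive at an unadjusted p under 0.05. Subventricular precursors had 13 of 14 above 0 with 4 at that level, and ependymal genes 29 of 35 with 5. Thalamic genes had 7 of 19 above 0 and stroma and meningeal fibroblasts 11 of 23, both with 0 at that level.

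Library iTBS 5, next below the threshold, had the highest level of the rest in 7 of the 10 called genes, and iTBS 1 in the other 3. In iTBS 5, Kl was at 6.97 CPM, Aqp1 at 1.03 CPM, Mfrp at 1.50 CPM and Slc4a5 at 0.719 CPM. Per 100 CPM of Ttr excess, iTBS 5 lay inside the range of the 3 choroid-containing libraries for 2 of the 13 genes examined, Kl with 4.99 CPM and Prlr with 2.35 CPM. It lay above all 3 for 3 genes, Enpp2 with 67.4 CPM, Aqp1 with 1.24 CPM and Mfrp with 1.33 CPM. It lay below all 3 for the other 8, among them Kcne2 with 0.211 CPM and Cldn2 with 0.389 CPM, which rest on 7 and 10 counts. The excess itself in iTBS 5 was 39.8 CPM for Enpp2, 0.729 CPM for Aqp1 and 0.784 CPM for Mfrp. The SD of the rest was 15.4 CPM, 0.236 CPM and 0.423 CPM for these genes (n = 12). Mfrp was also at 1.10 CPM in iTBS 3, where Ttr was at 0.780 CPM.

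By Spearman's rho over the 12 libraries, the genes most like Ttr of 19784 compared were Synm with 0.92, Enpp2 with 0.87, F5 with 0.85, then Glis1, Gm32224, Slc7a11, Ncam2, Gm12751 and Aff3 with 0.81 to 0.78, and 1 unnamed gene among them. Kl ranked 40th with 0.69, and further down the order were 0.48 for Clic6, 0.22 for 1500015O10Rik, 0.18 for Mfrp and 0.04 for Prlr. The 12 points share depth and the dissection of each library, and these values are a description. Slc4a5, Kcne2, Sostdc1, Cldn2, Aqp1, Folr1 and Otx2 averaged 0.109 to 0.467 CPM in the rest. That was too low to enter the ranking, so they have no rank. Apart from Kl, the genes with the smallest p for following Ttr were Spag16, Lypd1, S100a8, Crym and Shisa2 with positive slopes and Gm42741, Ebf4, Gm29674 and Ccl27b with negative slopes. All had an adjusted p of 0.999 in edgeR.

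The stimulation comparisons were made with and without the choroid class as a term of the model, since 2 of the 3 choroid-containing libraries were sham and 0 were iTBS. For iTBS over sham without the term, the 10 called genes had a median log2 fold change of -1.12, with 10 of 10 below 0. With the term the median was 0.59 with 9 of 10 above 0, and with the 3 libraries left out it was 0.63. The term does not adjust for Ttr within the rest, where iTBS 5 and iTBS 1 were highest, at 62.7 and 22.1 CPM. Sham libraries of the rest had 1.36 to 10.7 CPM. Ttr itself had a log2 fold change of 1.96 with the term and 2.05 with the 3 libraries left out. The part of these Ttr levels in the median was not tested. The median with the term was 0.32 without iTBS 5 and 0.33 in limma-voom. For cTBS over sham the medians were -0.79 without the term, 0.06 with it and 0.16 with the 3 libraries left out. The direction of the 0.06 was not stable, since it ran from -0.06 without cTBS 1 to 0.18 without cTBS 4 and was below 0 in 3 of 22 alternatives with the term. No single gene of the 10 passed the test in any of these fits. Slc4a5, for example, had -1.78 ± 0.96 for iTBS over sham without the term and 0.89 ± 0.57 with it. The genes were selected for following the class, so a shift between the fits was built in and its direction is set by which groups hold the libraries.

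Over all 24252 genes the term changed no count of calls. For iTBS over sham, 0 genes passed in edgeR with or without the term, with 255 and 422 genes at an unadjusted p under 0.05 (1.05% and 1.74%). With the 3 choroid-containing libraries left out it gave 0, with 312 genes at that level (1.29%). DESeq2 and limma-voom also gave 0 with the term. For cTBS over sham, 0 passed in edgeR with or without the term, with 6429 and 6515 genes at an unadjusted p under 0.05 (26.5% and 26.9%), and limma-voom gave 0. DESeq2 gave 1275 genes with the term, and edgeR gave 8145 when sham 4 was left out. With the 3 choroid-containing libraries left out, edgeR gave 0 genes and 2411 at an unadjusted p under 0.05 (9.94%).

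**Figure D5:**
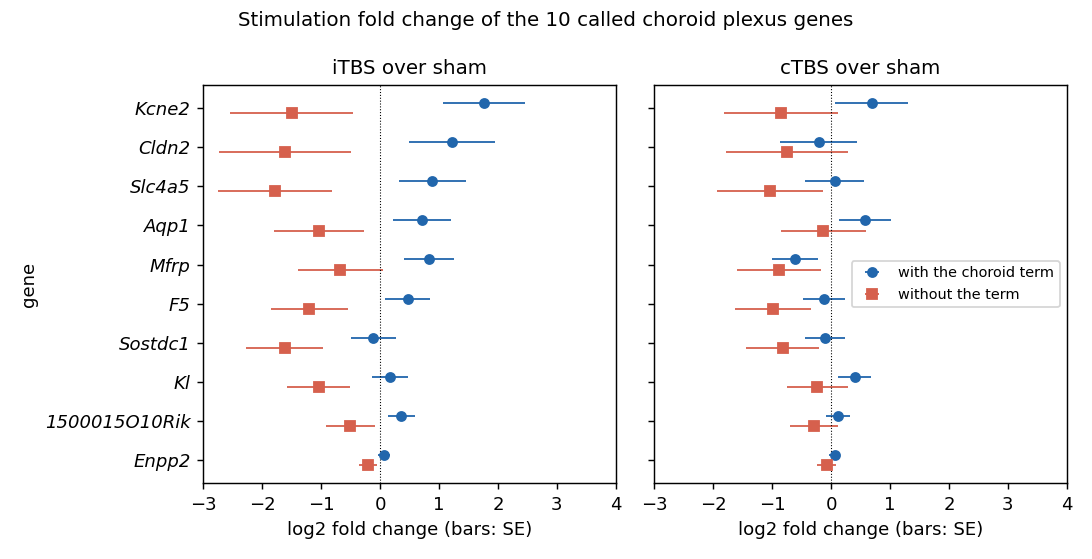
Log2 fold change over sham (points; bars, SE) of the 10 called choroid plexus genes for iTBS (left) and cTBS (right), with the choroid term (circles) and without it (squares). Without the term all 10 lie below 0 in both panels, and with it the medians are 0.59 for iTBS and 0.06 for cTBS.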

How the data were processed

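Per the labels' protocols, an RNeasy Mini kit gave the bulk cortex RNA, and stranded total RNA libraries followed removal of ribosomal RNA. The authors deposited raw counts per Ensembl gene for 15 libraries, and per the submitters' processing notes used fastp, STAR and DESeq2 with build GRCm39. Counter, annotation release and strand setting: not given in the sources used here, so overlapping and antisense genes are uncertain. A deposited table of variance-stabilized values was not used. Identifiers were named from an annotation of an earlier build, which named 52073 of 56748 with 97.7% of counts, so gene coordinates are not printed. Promoter sequences are from RefSeq, GRCm38.p6.

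Levels are CPM of the column total. Fold changes come from edgeR 4.0.16 in R 4.3.3 with TMM scaling, terms for choroid class and stimulation group, and a filter by class that kept 24252 of 45315 genes and 99.9% of counts. P-values were adjusted over all tested genes (Benjamini-Hochberg, threshold 0.05), and the SE is the fold change divided by the square root of F. The biological coefficient of variation was 20.7%. Among the 12 libraries under 100 CPM the term was log2 of Ttr CPM plus 0.5. DESeq2 1.42.0 and limma 3.58.1 (voom) were alternatives, beside other scaling, filters, thresholds, covariates and leaving out each library. The fits were tested on simulated data. The floor of 3 counts covers counting error only.

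The libraries, the members and the 23 gene lists were chosen with earlier results of these data known. The lists matched 388 of 396 symbols. Genes are named when called with at least 1 CPM in every choroid-containing library, by smallest p for following Ttr (10 genes), by rank of similarity to Ttr, or as the most abundant members of each list. Others, Kcne2 included, were named after their values were seen. A list member named by this rule is not reported here. Each library is a separate animal per the design.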

Additional observations from a re-analysis of the deposited data

Results flagged for a closer look

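In groups of 5 libraries, the gap between the most extreme library and its neighbour was divided by the group's range for Ttr, the other choroid genes and the summed lists. Of 102 groups examined, 17 were above the critical value of 0.71. Chance gives about 1 in 20 groups, but 10 of the 17 are cTBS 4 for Ttr or for genes called with that library among the high ones, so their number was set by the choice of libraries and is not to be read against that rate. The other 7 concern iTBS 5 and the summed lists.

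Among cTBS libraries, cTBS 4 stood apart as the highest with a ratio of 0.963 for Ttr, 0.843 for Slc4a5, 0.851 for Kcne2, 0.786 for 1500015O10Rik and 0.812 for Sostdc1. The same library had 0.735 for Kl, 0.850 for Mfrp, 0.958 for Cldn2, 0.859 for Aqp1 and 0.844 for Enpp2. These genes and the library were chosen for this pattern. No sham library stood apart for the choroid genes, since sham 2 and sham 5 are both high.

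Library iTBS 5 was the highest iTBS library for Slc4a5, with a ratio of 0.718. Library sham 2 was the highest sham library for the thalamic list, with 0.912. Library sham 4 was the lowest sham library for the ependymal list, with 0.793, and for the subventricular list, with 0.913. Library iTBS 3 was the highest iTBS library for stroma and meningeal fibroblasts, with 0.724, and iTBS 2 for border and stromal macrophages, with 0.823. Library cTBS 3 was the lowest cTBS library for choroid receptors and signalling, with 0.822.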

How the results depend on the processing

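The 10 genes higher in choroid-containing libraries were all above 0 in log2 fold change under every alternative run. In each of them the choroid-containing libraries lay above all others, so this direction was largely fixed by their selection and is no support. With Ttr as log2 CPM over 15 libraries the value is a change per doubling of Ttr. How many genes passed depended on a few settings. The count was 4 with the replicate block and 0 in the sham libraries alone, which hold 2 choroid-containing libraries. Leaving out 1 library gave 0 to 12 calls, with 0 without cTBS 4 or sham 5. The other alternatives gave 8 to 15. For genes following Ttr under 100 CPM, DESeq2 gave 1 call, Kl, against 0, and leaving out 1 library gave 0 throughout. For cTBS against sham with the term, DESeq2 gave 1275 (132 higher and 1143 lower), and leaving out 1 library gave 0 to 8145, which came without sham 4. The causes were not tested. The count for iTBS against sham was 0 throughout, and the exact p for the spread over groups was 1 at 50 CPM and 0.725 at 200 CPM.

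The labels do not state that replicate numbers pair the libraries, and the correlations did not settle it. Same-numbered libraries had deviations correlated above 0.1 in 7 of 15 pairs (-0.53 to 0.69), and 6 of 15 libraries correlated best with their own number. The replicate block gave 0 calls for the other 3 tests. Of the single-gene values under the alternatives, 462 kept direction and call, 54 lost the call and 22 gained it. With the choroid term the median over the 10 choroid genes was 0.32 to 0.71 for iTBS and -0.06 to 0.18 for cTBS against sham, the cTBS median being -0.06 with the Malat1 covariate, -0.06 without cTBS 1 and -0.03 without cTBS 5. Without the term the medians were -1.12 and -0.79. A level of 1 CPM rests on few counts at these depths.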
